A study of Mus musculus with 10 samples.

Results

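The gamma-tubulin ring complex genes are 8 of the 35501 mouse genes in these data: Tubg1, Tubg2, Tubgcp2, Tubgcp3, Tubgcp4, Tubgcp5, Tubgcp6 and Nedd1. They were chosen by name, and their transcript values were summed per gene. All 8 were found, and 7 had a mean of at least 1 TPM (an abundance per transcript length, scaled to the same total of 1000000 in each library) over all libraries. Tubgcp6, at a mean of 0.257 TPM, did not.

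The samples are single oocytes at metaphase II, where a ripe egg arrests and awaits fertilisation. ICR mice, an outbred stock, aged 6 to 8 weeks gave germinal vesicle oocytes, which matured in M16 medium for 16 h. The control group has 5 libraries, and the TubA group has 5 libraries from oocytes that had 0.1 µg/mL of TubA for those 16 h. TubA is the usual short form of tubastatin A, an HDAC6 inhibitor that raises tubulin acetylation, but the labels do not spell it out, and they name no genotype, vehicle, animal or culture. Each n is therefore a number of oocyte libraries, and the p-values capture no more than their scatter, which may be technical.

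Gamma-tubulin is the tubulin that starts microtubules and is not built along their length. The products of Tubg1 and Tubg2 bind the proteins of Tubgcp2 and Tubgcp3 to form small complexes. Those of Tubgcp4, Tubgcp5 and Tubgcp6 help to close these into a ring that acts as a template for a new microtubule, and the product of Nedd1 tethers the ring to spindle microtubules and to organising centres. Mouse oocytes lose their centrioles and build the meiotic spindle from many small centres that hold gamma-tubulin. Tubg1 is known as the widely expressed gene and Tubg2 mainly from brain.

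The libraries had the makeup of oocytes: all 8 oocyte markers were above 1 TPM on average, summing to between 24773 and 34501 TPM. Single markers varied more between libraries, with Zp2 at 93.1 to 4518 TPM and Zp3 at 406 to 8123 TPM. The 9 cumulus and granulosa markers summed to between 8.55 and 19.7 TPM, with Amh and Foxl2 listed at 0 in every library. Cyp19a1 (mean 11.6 TPM) was the 1 marker of these 9 whose mean reached 1 TPM. In single libraries Has2 reached 1.51, Inha 1.31 and Ptx3 1.03 TPM. The 4 theca and stroma markers summed to at most 17.1 TPM and the 4 blood and endothelial markers to at most 53.3 TPM. Of these last 2 lists, Dcn (mean 6.61 TPM), Pecam1 (26.0 TPM) and Hbb-bs (2.16 TPM) were above 1 TPM on average. Sequencing depth is unknown, because TPM does not carry it. Between 36465 and 42529 transcripts were above 0 per library, the most in TubA replicates 1 (42529) and 4 (41668).

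Divided into 2 sets by clustering, the libraries grouped across the treatment. The number of sets was fixed in advance. Complete-linkage clustering of the correlations between libraries over 11664 genes grouped TubA replicates 1 and 2 beside control replicates 1, 2 and 3, called set A here. Set B holds TubA replicates 3, 4 and 5 beside control replicates 4 and 5. The sets thus run with the replicate numbers: every library numbered 1 or 2 is in set A, every one numbered 4 or 5 is in set B, and number 3 is split. What the numbers stand for is not stated, and their part in the sets was not tested. The same sets came from the 10822 genes outside chromosome 11, the chromosome that holds Tubg1 and Tubg2. Average linkage instead split off control replicate 3 alone, so the sets depend on the method. Correlations between libraries ran from 0.909 to 0.961 within a set and from 0.861 to 0.942 between sets, so they overlap. They are no label of the submitters and were found from the values described here, so differences between them are given without a test.

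Tubg2 was the most abundant of the 8 genes, while Tubg1, its close neighbour and near copy, varied the least. Tubg2 was also the 1 member of the 8 whose levels separated the library sets, beside 5.14% of all 11664 genes. As the sets were found from the values, this count says little about the members. In the control libraries, replicates 1 to 5, Tubg2 had 77.0, 107, 88.9, 381 and 374 TPM. In the TubA libraries, replicates 1 to 5, it had 149, 87.3, 335, 375 and 395 TPM. Each group thus holds low and high libraries: the low ones are those of set A and the high ones those of set B. Set A had 102 ± 28.3 TPM (mean ± SD, n = 5) and set B 372 ± 22.0 TPM (n = 5), a ratio of 3.66, and the lowest library of set B was 2.26 times the highest of set A. Over all 10 libraries its coefficient of variation was 61.0%.

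Tubg1 did not follow that pattern. Its control libraries had 90.5, 99.5, 104, 105 and 92.7 TPM and its TubA libraries 109, 75.6, 83.6, 124 and 91.4 TPM. It had 95.7 ± 13.2 TPM in set A and 99.4 ± 15.8 TPM in set B, and the ranges (75.6 to 109 and 83.6 to 124 TPM) overlap. Its coefficient of variation of 14.2% was the smallest of the 8 genes.

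**Figure D1:**
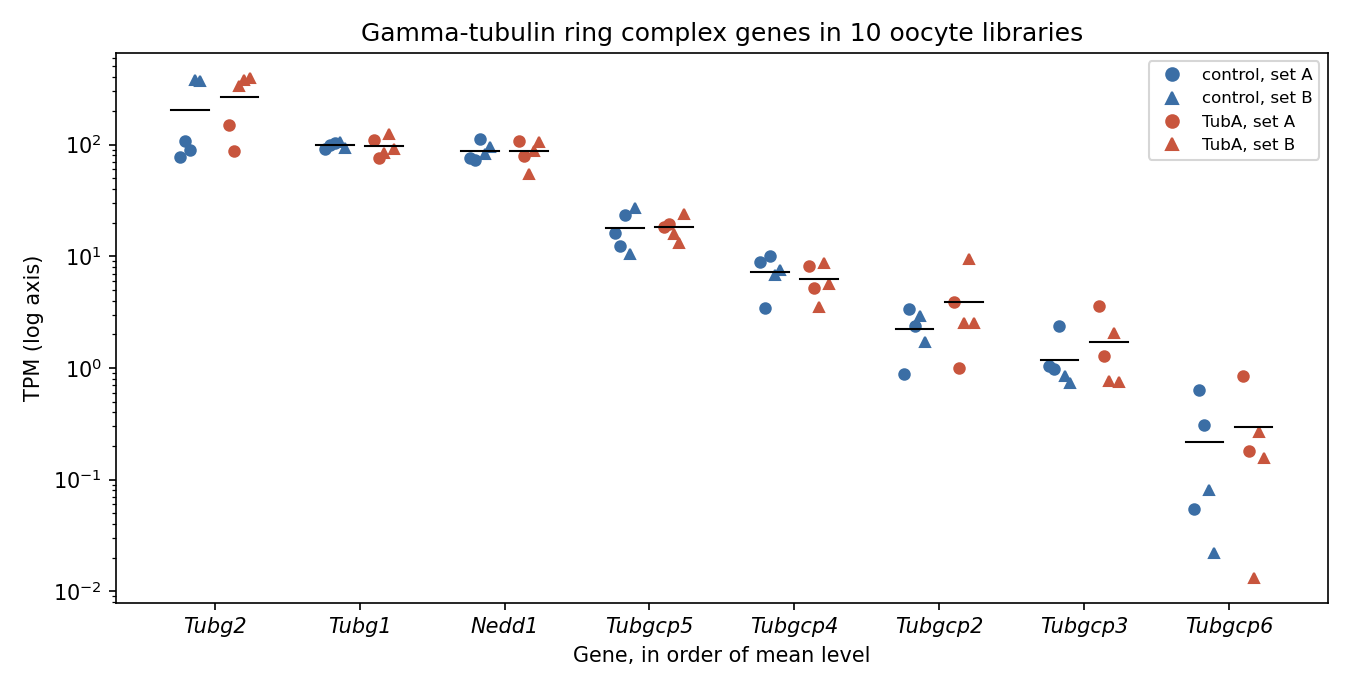
Level of the 8 genes in each of the 10 libraries, in TPM on a log axis, with control in blue, TubA in red, circles for set A, triangles for set B and a line at each group's mean (n = 5). Tubg2 splits into low circles (77.0 to 149 TPM) and high triangles (335 to 395 TPM) in both groups, whereas Tubg1 stays between 75.6 and 124 TPM.

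The balance of the 2 gamma-tubulin genes therefore differed between libraries of the same group. In control replicates 1 to 5, Tubg1 made up 54.0%, 48.3%, 53.8%, 21.7% and 19.9% of the summed TPM of Tubg1 and Tubg2. In TubA replicates 1 to 5 it made up 42.4%, 46.4%, 19.9%, 24.9% and 18.8%. In set A the 2 genes were about level, with Tubg2 at 0.851 to 1.36 times Tubg1, and in set B Tubg2 stood at 3.02 to 4.32 times Tubg1. Their sum was not constant either, at 163 to 258 TPM in set A and 419 to 499 TPM in set B.

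TubA libraries had a mean Tubg1 share of 30.5 ± 12.99% and control libraries 39.5 ± 17.3% (n = 5 each). The difference of -9.04 percentage points was smaller than the spread within either group (exact two-sided permutation test, p = 0.286). Compared within the sets, the mean difference was -3.60 percentage points (exact permutation within sets, p = 0.16). Since the sets were found from these same values and separate the share, that comparison is descriptive. The groups hold unequal numbers of set B libraries, 2 in control and 3 with TubA.

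**Figure D2:**
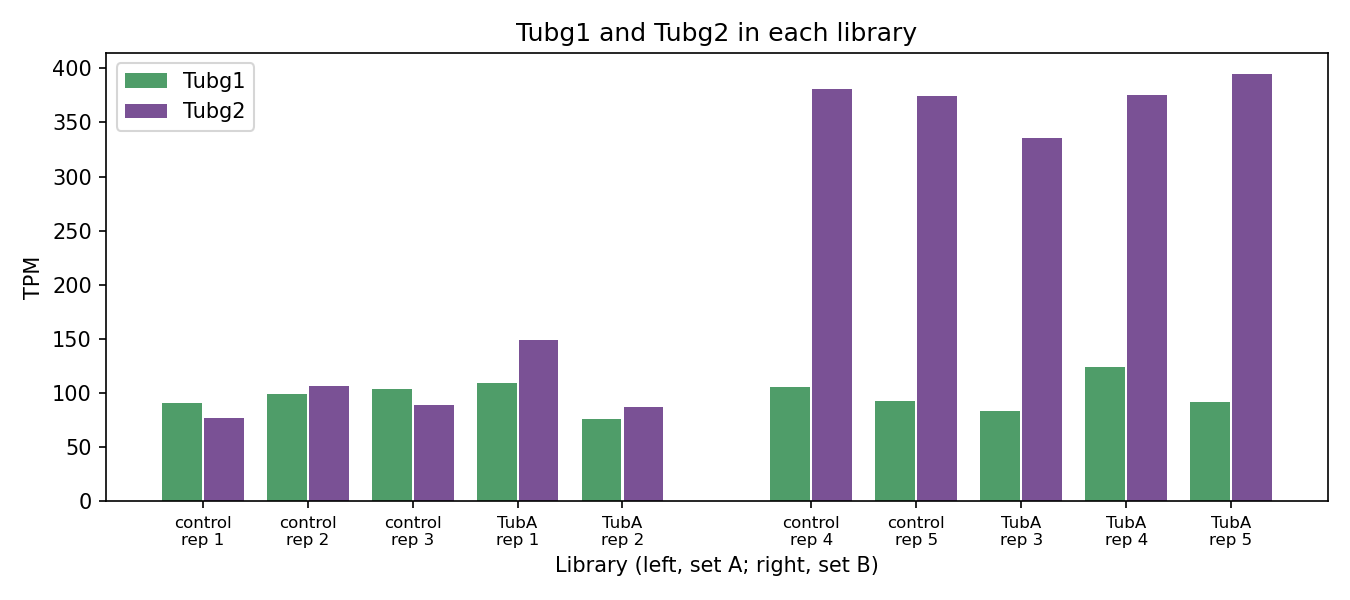
TPM of Tubg1 (green) and Tubg2 (purple) in each library, with set A on the left and set B on the right; the axis starts at 0. The Tubg1 bars are alike throughout, and the Tubg2 bars rise from at most 149 TPM in set A to at least 335 TPM in set B.

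Tubg1 (ENSMUSG00000035198) lies on chromosome 11 at 101119938 to 101126419 and Tubg2 (ENSMUSG00000045007) at 101155907 to 101161787 (GRCm38, plus strand), 29487 bp apart. Each value rests almost wholly on 1 coding transcript of 11 exons. These have 1353 coding bases each, of which 93.3% are identical, with 91 differences and no gap. Of the differences, 73 fall on the last base of a codon, so that 436 of the 451 encoded residues are shared.

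How far the reads of the 2 genes can be told apart follows from the sequences. The 120 coding bases with the most differences, positions 1160 to 1279 from the first base of the start codon, are shown first, in GENCODE M21 transcripts on GRCm38, with the 23 differing bases in capitals.
Tubg1: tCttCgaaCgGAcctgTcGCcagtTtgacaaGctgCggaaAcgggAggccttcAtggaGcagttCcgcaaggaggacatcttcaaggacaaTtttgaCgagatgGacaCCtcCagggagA
Tubg2: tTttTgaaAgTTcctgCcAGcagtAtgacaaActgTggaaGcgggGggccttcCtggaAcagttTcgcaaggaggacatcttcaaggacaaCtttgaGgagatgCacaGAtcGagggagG
The longest stretch without a difference, 164 bases at positions 640 to 803, is the same in both genes, and reads that lie inside it fit both.
Tubg1 and Tubg2: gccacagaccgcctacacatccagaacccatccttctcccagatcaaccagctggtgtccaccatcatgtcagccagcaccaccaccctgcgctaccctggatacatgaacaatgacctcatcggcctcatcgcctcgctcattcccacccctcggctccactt

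Of the 31-base words of the Tubg2 transcripts, 23.6% also occur in Tubg1, and no other gene with a value above 0 holds any. Of those of Tubg1, 18.3% occur in other genes. Most of each transcript is thus distinct, although the exact division of shared reads is the authors' estimate. The sum of the 2 genes was 2.39 times higher in set B.

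The genes around the pair did not separate the sets. On the left, Mlx, encoding a transcription factor that dimerises with MondoA, had 196 to 346 TPM in set A and 224 to 352 TPM in set B. Psmc3ip, a gene of meiotic recombination, reached 0.564 TPM in set A and 5.33 TPM in set B, with overlap. Retreg3, which starts 44 bp from Tubg1 on the opposite strand, ranged from 3.34 to 12.7 and from 7.58 to 10.999 TPM. On the right, Plekhh3 ranged from 0.436 to 4.32 and from 1.95 to 12.9 TPM. Cntnap1 ranged from 11.3 to 42.1 and from 9.17 to 16.7 TPM, and Ezh1, encoding a histone methyltransferase, from 19.9 to 67.6 and from 20.8 to 44.9 TPM. No gene whose mean reached 1 TPM lies between Tubg1 and Tubg2.

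**Figure D3:**
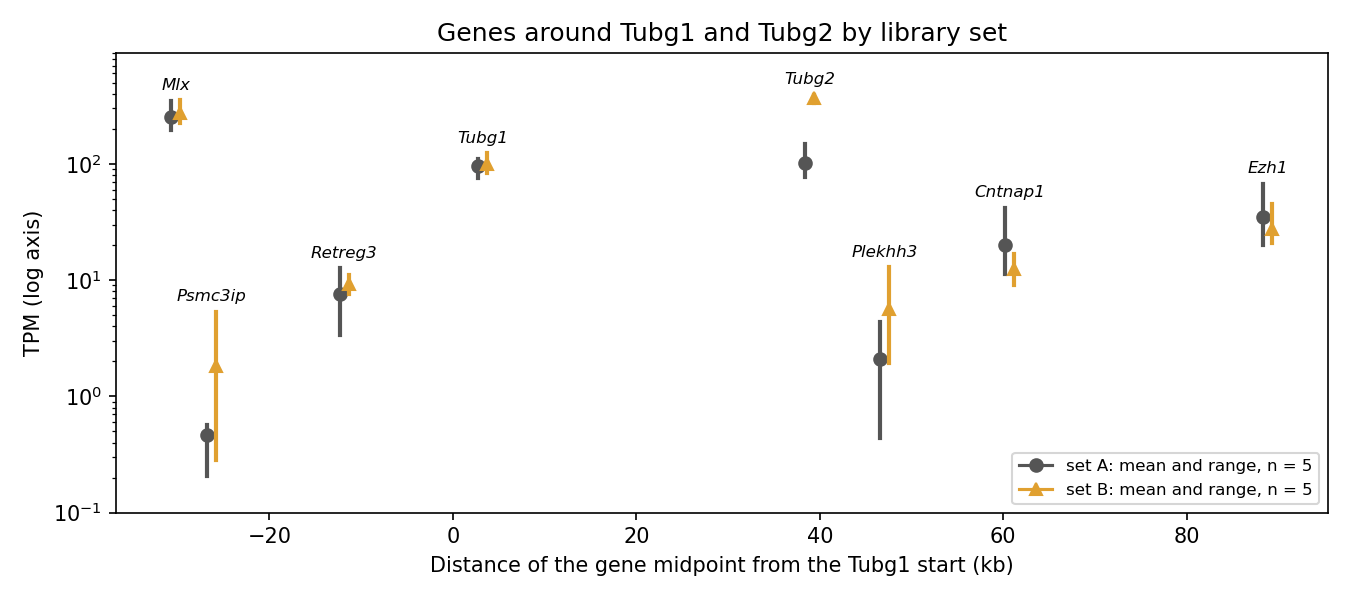
Levels of Tubg1, Tubg2 and the 3 nearest genes on each side whose mean reached 1 TPM, in TPM on a log axis against the distance from the Tubg1 start in kb; symbols are means and lines the range of the 5 libraries of set A (grey) or set B (yellow). Tubg2 is the only gene drawn whose ranges do not overlap.

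The separation of Tubg2 was shared by many genes elsewhere. Among 11664 genes, 256 had every set B library above every set A library and 344 the reverse, together 5.14%, and 72 of these were at least as far apart as Tubg2 on log2(TPM + 1). Since clustering makes sets that differ, such genes must exist, and the counts are a description. The genes most like Tubg2 over the 10 libraries were sought among 5839 genes of at least 10 TPM that are neither predicted loci nor pseudogenes. They were Sspn (Pearson r = 0.98), Mfap1a (0.98), Nipsnap2 (0.97), Pdia6 (0.97) and Ighg1 (0.97). All of them separated the sets too, which follows from choosing them by likeness to Tubg2 and is no separate support. The libraries form clusters on this measure, so r here only orders genes by likeness. Sspn, a gene of the dystrophin complex, had 1.26 to 2.52 TPM in set A and 18.3 to 31.6 TPM in set B. Its mean reached 10 TPM only through set B. Nipsnap2, a mitochondrial protein gene, had 36.7 to 61.8 and 148 to 189 TPM, and Pdia6, encoding a protein disulfide isomerase, had 60.7 to 137 and 215 to 251.9 TPM. Mfap1a is uncertain, since 63.9% of its 31-base words occur in other genes, mainly its copy Mfap1b. Ighg1, an immunoglobulin heavy chain gene, had 5.71 to 16.5 and 60.9 to 125 TPM.

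The genes most like Tubg1 were others: Lcmt1 (r = 0.95), Eif4b (0.95), Orc5 (0.94), Pdhx (0.94) and Tuba4a (0.94). None of these 5 separated the sets, which largely follows from choosing them by likeness to Tubg1. Orc5, a gene of the origin recognition complex, was the most abundant and had 657 to 1049 TPM in set A and 647 to 1336 TPM in set B. Tuba4a, an alpha-tubulin gene, ranged from 12.96 to 32.2 and from 13.6 to 43.6 TPM, and shares 37.1% of its words with other genes, mainly Stk16.

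Transcripts of the Tubgcp genes, whose products hold gamma-tubulin in the complex, were far less abundant than those of the gamma-tubulin genes. Protein was not measured. Over all libraries the means ran from Tubg2 (237 TPM) through Tubg1 (97.6), Nedd1 (87.4), Tubgcp5 (18.1), Tubgcp4 (6.76), Tubgcp2 (3.06) and Tubgcp3 (1.44) to Tubgcp6 (0.257 TPM). Nedd1 was above Tubgcp5, and Tubgcp5 above Tubgcp4, in all 10 libraries and without overlap of their ranges. Tubg1 was above Nedd1 in 6 of 10 libraries, so the order of this pair is not fixed by these data. Tubg2 exceeded Tubg1 in 8, Tubgcp4 exceeded Tubgcp2 in 9, Tubgcp2 exceeded Tubgcp3 in 8 and Tubgcp3 exceeded Tubgcp6 in 10, each with overlapping ranges.

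The 5 Tubgcp genes together held 20.7 to 38.5 TPM per library, without separating the sets (29.6 ± 7.07 TPM in set A and 29.5 ± 7.20 TPM in set B, n = 5 each). The 2 gamma-tubulin genes together stood at 5.00 to 9.94 times this sum in set A and at 12.6 to 23.2 times in set B. The higher Tubg2 of set B thus stood beside a Tubgcp sum of the same size as in set A.

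Tubgcp2 (chromosome 7, 139995955 to 140036669), whose product pairs with that of Tubgcp3 in the small complex, had 0.887, 3.37, 2.37, 2.95 and 1.69 TPM in control replicates 1 to 5. With TubA it had 3.93, 0.995, 2.52, 9.42 and 2.52 TPM in replicates 1 to 5. TubA replicate 4 stands above the other 9 libraries, which overlap between groups. Tubgcp3 (chromosome 8, 12614277 to 12672248) had 1.04, 0.970, 2.36, 0.850 and 0.726 TPM in control and 3.58, 1.29, 0.763, 2.07 and 0.755 TPM with TubA. It was highest in TubA replicate 1, followed by control replicate 3 and TubA replicate 4. TubA replicates 1 and 4 are the libraries with the most transcripts above 0, and the part of this in the low genes' values was not tested.

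Tubgcp4, Tubgcp5 and Tubgcp6 encode the ring-specific subunits. Tubgcp5 (chromosome 7, 55794154 to 55831677) was the leading Tubgcp gene, with 16.3, 12.3, 23.5, 10.4 and 27.3 TPM in control and 18.4, 19.3, 15.8, 13.3 and 24.0 TPM with TubA. It made up 39.4% to 73.4% of the summed Tubgcp TPM. Tubgcp4 (chromosome 2, 121170654 to 121198770) had 8.83, 3.43, 10.004, 6.73 and 7.46 TPM in control and 8.14, 5.22, 3.54, 8.63 and 5.60 TPM with TubA. Tubgcp6 (chromosome 15, 89098357 to 89123112) ranged from 0.0219 to 0.631 TPM in control and from 0.0133 to 0.854 TPM with TubA, a level at which no comparison can be made with confidence.

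The Tubgcp4 and Tubgcp6 levels may include reads of other genes, as it is not stated whether the libraries kept strand. The end of Tubgcp4 overlaps Trp53bp1 on the opposite strand over 5490 bp, and 25.0% of the words of Tubgcp4 occur in Trp53bp1, which had 563 to 2142 TPM. The 7 Tubgcp4 transcripts that end before the Trp53bp1 gene summed to 1.005 to 2.72 TPM. None of these 7 is annotated as protein coding, so the sum does not give a coding level of Tubgcp4. Tubgcp6 overlaps Selenoo (mean 1.40 TPM), and Tubgcp2 overlaps Zfp511 (mean 10.2 TPM) over 279 bp. No word of Nedd1 occurred in another gene, and less than 1% of those of Tubgcp3 (0.513%) and Tubgcp5 (0.683%).

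The Tubgcp genes also differed from the others in which transcripts carried their TPM. Tubg1, Tubg2 and Nedd1 had at least 98.7% of their TPM in protein-coding transcripts in every library. The data list only 1 transcript for Tubg2, 2 for Tubg1 and 4 for Nedd1, but from 7 (Tubgcp2) to 15 (Tubgcp4) for the Tubgcp genes. With its 1 transcript coding, the share of Tubg2 is 100% by construction. The part of these transcript numbers in the contrast was not tested. For Tubgcp5 this share was 79.0% at the median and ranged from 39.2% in control replicate 5 to 96.9% in control replicate 3. The remainder was mainly the retained-intron transcript ENSMUST00000205311, which had 14.6 TPM in control replicate 5 and was listed at 0 in 2 libraries. The median share was 49.5% for Tubgcp4, 62.4% for Tubgcp2 and 68.3% for Tubgcp3. In Tubgcp4 the retained-intron transcript ENSMUST00000138601 and the coding transcript ENSMUST00000186659 are identical in sequence and have equal TPM. The Tubgcp4 share is thus partly arbitrary. In Tubgcp2 the coding transcript ENSMUST00000026547 led in the controls, with a mean of 1.16 TPM against 0.539 TPM for ENSMUST00000210224, annotated as a target of nonsense-mediated decay. With TubA the means were 0.441 and 2.04 TPM, and TubA replicate 4 alone had 5.82 TPM of the latter. Another coding transcript, ENSMUST00000211638, went the other way, with a mean of 0.429 TPM in control and 1.17 TPM with TubA. The leading coding transcript alone therefore does not give the coding level of Tubgcp2. In the low genes a few reads can move such shares, and their number is unknown.

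**Figure D4:**
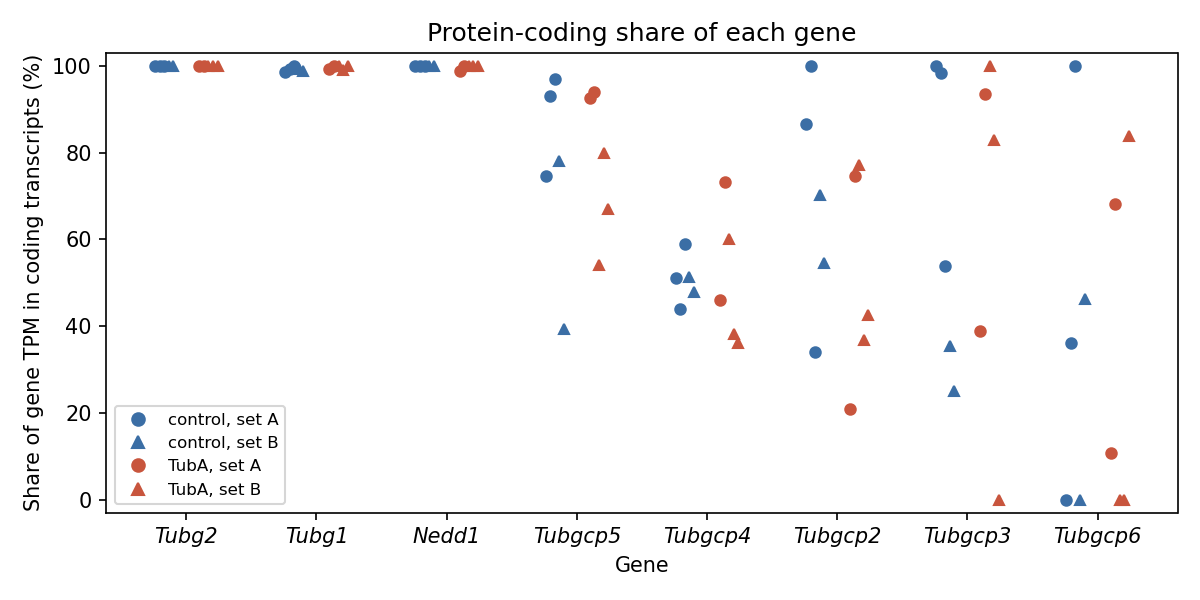
Share of each gene's TPM that lies in transcripts annotated as protein coding, in percent, for each of the 10 libraries (control blue, TubA red, circles set A, triangles set B). The shares are at or near 100% for Tubg2, Tubg1 and Nedd1 and spread widely for the Tubgcp genes, from 39.2% to 96.9% in Tubgcp5. Tubg2 has only 1 listed transcript, so its share is 100% by construction, and the Tubgcp genes have more listed transcripts than Tubg1 and Nedd1.

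Nedd1 (chromosome 10, 92684746 to 92722420), the tether of the ring, was steady. It had 76.0, 73.0, 113, 82.8 and 95.8 TPM in control replicates 1 to 5 and 108, 78.6, 54.1, 86.8 and 106 TPM in TubA replicates 1 to 5. The groups overlap, and so do the sets, at 89.8 ± 19.3 TPM in set A and 85.1 ± 19.5 TPM in set B (n = 5 each).

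The comparison of TubA with control asks whether the TPM of genes for microtubule nucleation differed when the oocytes matured with the agent. TPM is relative to the total of each library, so the absolute supply of transcripts was not measured. None of the 7 members tested passed the test (limma on log2(TPM + 1), adjusted p = 0.9999 for each), and in none of the 8 did the libraries of both groups separate. Over all 11664 genes, 0.00857% passed (1 gene) and 0.454% separated without overlap (53 genes). At an unadjusted p under 0.05 stood 0 of the 7 members and 2.51% of all genes. The members' counts therefore say little beyond the series as a whole.

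Tubg1 averaged 98.3 ± 6.58 TPM in the controls and 96.8 ± 19.7 TPM after TubA (log2 difference -0.04, 95% interval -0.42 to 0.34, limma unadjusted p = 0.81). Nedd1 stood at 88.1 ± 16.5 and 86.8 ± 22.2 TPM (-0.04, -0.53 to 0.44, limma unadjusted p = 0.84). Tubgcp5 stood at 17.9 ± 7.22 and 18.2 ± 4.03 TPM (log2 difference 0.08, 95% interval -0.55 to 0.71), and Tubgcp4 averaged 7.29 ± 2.50 and 6.23 ± 2.12 TPM (-0.19, -0.88 to 0.51). For Tubgcp4 the log2 difference was -0.40 without control replicate 2 and -0.03 without TubA replicate 3. The intervals of Tubg1 and Nedd1 stayed within 1 log2 unit either way, here and in each alternative run.

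The others are less well fixed. Tubgcp2 averaged 2.25 ± 0.990 TPM in the controls and 3.88 ± 3.27 TPM after TubA (log2 difference 0.42, 95% interval -0.49 to 1.33). Without TubA replicate 4 its log2 difference was 0.09, and with protein-coding transcripts only it was 0.01. Tubgcp3 stood at 1.19 ± 0.666 and 1.69 ± 1.18 TPM (log2 difference 0.24, 95% interval -0.50 to 0.99), or 0.03 without TubA replicate 1. Tubgcp6, which the filter leaves out, stood at 0.219 ± 0.256 and 0.294 ± 0.326 TPM (log2 difference 0.08 and unadjusted p = 0.70 in limma without the filter).

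For Tubg2 the estimate changed with the library sets. It averaged 206 ± 157 TPM in the controls and 268 ± 140 TPM after TubA, a log2 difference of 0.52 with a 95% interval of -0.68 to 1.73 (limma unadjusted p = 0.36). When the fit also held the set, the log2 difference was 0.15 (-0.26 to 0.56, limma unadjusted p = 0.44). Within set A it was 0.34 and within set B -0.04, where control had 374 and 381 TPM and TubA 335 to 395 TPM. The interaction of TubA with the set did not pass for Tubg2 (limma, unadjusted p = 0.34). Because the sets were found from these same values and separate Tubg2, a set term narrows its interval by construction. The fits with or within the sets are therefore descriptive. The left-out library with the most effect was TubA replicate 2, without which the log2 difference was 0.87, and without control replicate 1 it was 0.26.

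**Figure D5:**
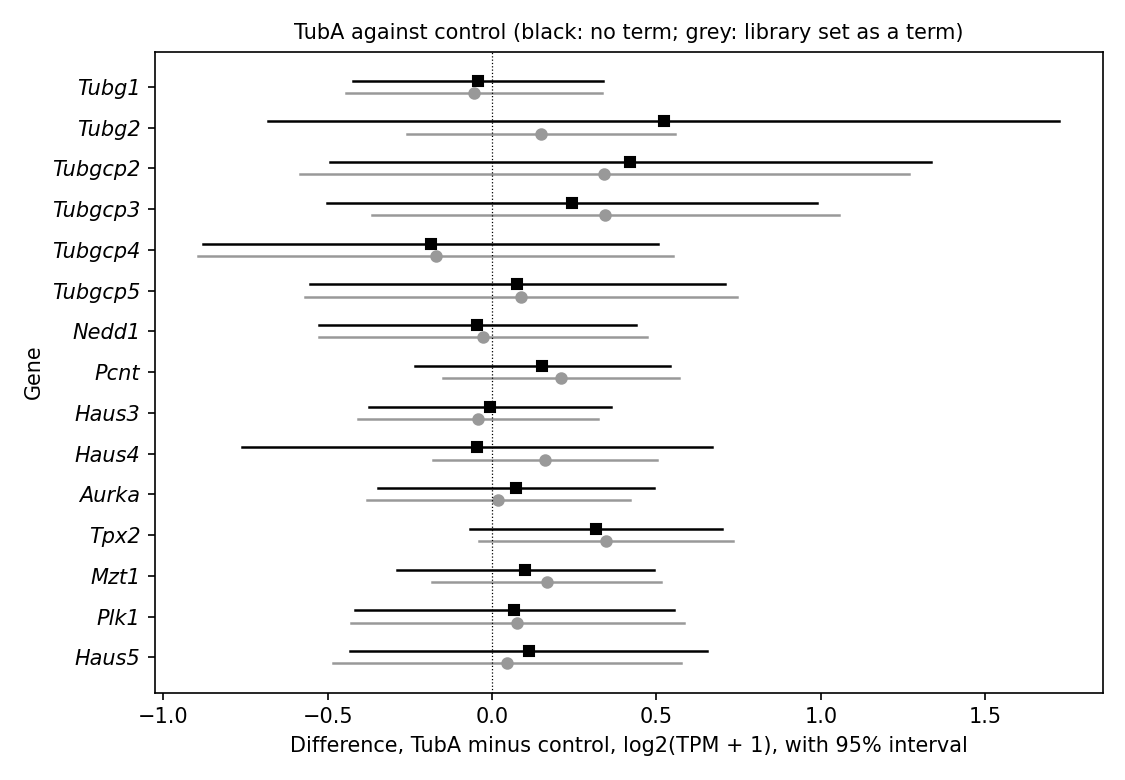
Difference between TubA and control on the log2(TPM + 1) scale with its 95% interval for the 7 members tested and the 8 most abundant partner genes, from the limma fit without covariates (black squares) and with the library set as a term (grey circles). Every interval includes 0, and the interval of Tubg2 shrinks from between -0.68 and 1.73 to between -0.26 and 0.56 once the set is in the fit. As the sets were found from these values and separate Tubg2, the set term narrows this interval by construction.

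At the level of transcripts, 21838 were tested and 0.00458% passed (1 transcript). Of the members' transcripts 8 were tested, and none passed or had an unadjusted p under 0.05 (limma). Among all 21838 transcripts, 687 had an unadjusted p under 0.05 (limma), so 0 of 8 says little about the members. The members' 8 transcripts comprise 1 each for Tubg1, Tubg2, Tubgcp2 and Nedd1 and 2 each for Tubgcp4 and Tubgcp5. Tubgcp3 and Tubgcp6 had none that reached the filter. A shift between the transcripts of a gene was not tested.

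The genes that recruit, activate or amplify gamma-tubulin nucleation were listed as 32 partners, of which 27 were tested. Of these, 0 passed in either direction (limma), beside 0.00857% of all genes, so this count says little about the partners. A positive difference was found for 18 and a negative one for 9. The median log2 difference was 0.07, against 0.01 for all genes tested. The split of signs was not stable, at 14 and 13 within set B and 23 and 4 without control replicate 3. The split over all genes is not given here. Pcnt, encoding the scaffold pericentrin that gathers the ring at organising centres, was the most abundant, with 801 ± 117 TPM in control oocytes and 901 ± 213 TPM after TubA (log2 difference 0.15, or 0.03 without TubA replicate 1). Mzt1, encoding a small protein of the ring, stood at 222 ± 18.0 and 243 ± 58.3 TPM, while Mzt2 had a mean of only 1.29 TPM. Tpx2, a spindle assembly factor that activates the Aurora A kinase, had the lowest p of the list (limma unadjusted p = 0.098, log2 difference 0.32), with 217 ± 37.6 and 271 ± 45.3 TPM. The kinase genes Aurka and Plk1 stood at 307 ± 46.1 and 327 ± 80.4 TPM and at 159 ± 42.2 and 165 ± 37.1 TPM.

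Augmin, the complex that places gamma-tubulin rings on existing microtubules through Nedd1, was uneven in its transcripts. Haus3 averaged 636 ± 125 TPM in the controls and 628 ± 84.7 TPM after TubA, and Haus5 averaged 152 ± 45.1 and 160 ± 34.8 TPM. Haus2 had a mean of 0.405 TPM and Haus7 of 2.87 TPM. Haus4 stood at 546 ± 194 and 538 ± 236 TPM, with 654 to 868 TPM in set A and 301 to 467 TPM in set B. It was the 1 partner of the 27 tested whose sets did not overlap, beside 5.14% of all genes, so the count does not set the partners apart.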

How the data were processed

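Single-oocyte RNA was amplified with Smart-seq2, a full-length method, per the labels' protocols. The deposited files give TPM, 1 value per Ensembl transcript; the unit was read from the values, which sum to 1000000 per library. Per the submitters' processing notes, Bowtie 0.12.2 was among the tools and mm10 was the genome build. Which program computed TPM, and from which annotation, is not given in the sources used here. No pair of files was identical.

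Transcripts were joined to GENCODE M21 (GRCm38, the assembly of mm10) without version numbers: 113492 of 115270 matched, and the other 1778 held 0.531% to 0.753% of each library. Values were summed per gene (Python 3.11.15, pandas 2.3.3). TubA was compared with control by limma 3.58.1 (R 4.3.3) on log2(TPM + 1), pseudocount 1, for genes or transcripts whose mean over the libraries reached 1 TPM, with trend, robust moderation and Benjamini-Hochberg adjustment over all of them at 0.05. Differences on this scale understate the change of low genes. The fit was tested on simulated data. The Tubg1 share was compared by an exact permutation test (scipy 1.17.1). Sequences come from the GENCODE M21 transcripts, and shared sequence is the percentage of words of 31 bases, on either strand, found in another gene with a value above 0.

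The members, partner list, library sets and alternatives were chosen with earlier results of these data known. Named are all members, the partners with an unadjusted p under 0.05 (none) and the 8 most abundant, the 5 genes most like Tubg1 and Tubg2 by Pearson r, and 3 neighbours on each side. Mzt2, Haus2 and Haus7 were added after their values were seen. Values of exactly 0 are described as listed at 0. Alternatives covered the pseudocount, filter, scaling, weights, block, library set, transcript type and each library left out.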

Additional observations from a re-analysis of the deposited data

Results flagged for a closer look

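Among the members, the Tubg1 and Tubg2 balance and the 8 named partners, 38 groups of 5 libraries were examined for a library standing far from the rest, where chance gives about 1 in 20, and 1 was found. Tubgcp3 in control replicate 3 had 2.36 TPM, and the nearest other control library had 1.04 TPM, a gap of 0.810 of the group's range against a critical value of 0.71. Without this library the log2 difference of Tubgcp3 between TubA and control was 0.41 (0.24 with it), still short of the threshold.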

How the results depend on the processing

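No member and no named partner passed the limma threshold under any of up to 22 alternatives each (lowest adjusted p = 0.97). The count of all genes that passed, 1, fell to 0 with a filter at 5 TPM, with the replicate block, within set B and with coding transcripts only, and was 12 within set A; leaving out single libraries kept it at 1. That of transcripts, 1, fell to 0 with a filter at 5 TPM and with the block, and lay between 0 and 2 with a library left out. The partner list kept 0 throughout. The Tubg1 share difference lay between -13.96 and -5.42 percentage points with a library left out, and the replicate block gave p = 0.313 (exact sign-flip test). Same-numbered libraries did not deviate together in every pair (correlations -0.31 to 0.48), although numbers 4 and 5 each correlated best with their own number (0.48 and 0.26), a hint from the data and not from the design. Average linkage gave 0.351 in place of 3.66 for the Tubg2 ratio of sets, because its set B is control replicate 3 alone. Log2 differences that changed sign were small. Within set A they were 0.11 for Nedd1, 0.14 for Haus3, 0.18 for Haus4 and -0.025 for Plk1. Within set B they were -0.039 for Tubg2, 0.14 for Haus4, -0.013 for Aurka, -0.11 for Mzt1 and -0.17 for Haus5. Array weights gave 0.020 for Nedd1 and 0.016 for Haus4, the set as a term 0.16 for Haus4, and coding transcripts only -0.020 for Mzt1. With a library left out, Tubg1 lay between -0.14 and 0.039, Tubgcp5 between -0.085 and 0.24, Nedd1 between -0.13 and 0.11, Haus3 between -0.11 and 0.092, Haus4 between -0.25 and 0.12, Aurka between -0.041 and 0.18, Plk1 between -0.068 and 0.19 and Haus5 between -0.088 and 0.21. The cause of these changes was not tested. Depth is unknown, which limits the Tubgcp genes of low level most.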
